A study of Mus musculus with 8 samples.

Results

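The 9 genes Ighm, Ighd, Igkc, Cd79a, Cd79b, Ms4a1, Vpreb3, Cd93 and Jchain, chosen by name for their place in the B cell receptor, in antibody or in B cell maturation, were followed through single-cell RNA-seq libraries of leukocytes from mouse brain, pia and dura. They are 9 of the 30406 genes listed in all 8 libraries. The cells came from adult male C57BL/6 wild-type mice, either controls without stroke or mice killed 24 or 72 h after transient middle cerebral artery occlusion (MCAO), in which a filament blocks the artery that feeds much of the forebrain. All mice had received a fluorescent CD45 antibody intravenously before perfusion, and CD45+ cells that the antibody had not reached were sorted, so that blood leukocytes were reduced. The libraries were brain control, brain 24 h replicates 1 and 2, brain 72 h, pia control, pia 24 h, dura control and dura 24 h after MCAO. The labels do not give the number of mice behind a library, and the control pia library carries a title that reads brain while its tissue label reads pia. Each group other than brain 24 h is a single library, so values of those groups have no replicate error of their own.

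The B cell receptor is a membrane immunoglobulin made of heavy and light chains, held by the signalling pair CD79A and CD79B. A developing B cell first pairs its heavy chain with a surrogate light chain, then shows IgM, later adds IgD as it matures, and as a plasma cell turns to secreting antibody, with the J chain joining IgM or IgA units into polymers. The dura lies against the skull bone marrow, and dural B cells at several stages of development are known.

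The submitters' annotation places 32457 barcodes in 21 clusters, and its B cell cluster, Bc, holds 1035 of them. By library Bc held 7 cells in the control brain, 7 and 161 in brain 24 h replicates 1 and 2, 161 in brain 72 h, 60 in control pia, 48 in pia 24 h, 153 in control dura and 438 in dura 24 h. The replicates of brain 24 h stood apart in this, with 0.153% (95% exact binomial interval 0.0614 to 0.315) of annotated cells in Bc in replicate 1 and 4.64% (3.97 to 5.4) in replicate 2. The brain libraries with 161 Bc cells carry a shorter gene list (31053 genes) than those with 7 (32285 genes). The part of processing in this difference was not tested. In the dura the share was 5.44% (4.63 to 6.35) in the control and 9.69% (8.85 to 10.6) at 24 h, and in the pia 2.14% (1.63 to 2.74) and 1.22% (0.904 to 1.62). With 1 library per group these shares were not tested between conditions, and the intervals here and below cover counting error only. Levels are given as CPM, the summed unique molecular identifiers (UMIs) of a gene per 1000000 UMIs of the same cells, for the 6 libraries with at least 30 Bc cells.

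The label Bc was checked against markers. The 6 B cell markers summed to between 16501.8 and 238408.3 CPM in Bc and between 125.8 and 714.8 CPM in all other cells of the same libraries. T cell, NK cell and neutrophil markers in Bc reached at most 279.5, 51.3 and 173.5 CPM. The 2 erythroid markers summed to 353.0 and 717.7 CPM in Bc of brain 24 h replicate 2 and brain 72 h (427.3 and 269.0 CPM in their other cells) and to at most 12.4 CPM in Bc of pia and dura. The 3 endothelial markers summed to 109.2 and 131.0 CPM in Bc of those brain libraries and to between 13.2 and 66.5 CPM in pia and dura, above the other cells of each of these libraries. This was mostly Pecam1, at a mean of 69.7 CPM over these 6 libraries. Cldn5 had a mean of 2.51 CPM and Flt1 of 0.0 CPM. Myeloid markers were present: the 6 genes summed to 2023.2 and 3862.0 CPM in Bc of brain 24 h replicate 2 and brain 72 h, to 9118.7 and 7874.5 CPM in the pia and to 1988.0 and 2456.4 CPM in the dura, below the 20335.8 to 68953.6 CPM of the other cells. The 7 Bc cells of the control brain stood at 21259.7 CPM. None of the 6 myeloid markers was at 0 in the Bc sums of the 6 larger libraries. The part of these other markers in the differences between tissues was not tested. Total UMIs per library ran from 6591898 to 20754181 and the median per Bc cell from 810.5 in dura 24 h to 1642.0 in brain 24 h replicate 2.

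In the GRCm38 build with the GENCODE M21 annotation the constant-region genes Ighm (chr12:113418558-113422730) and Ighd (chr12:113406604-113416324) lie side by side on the minus strand, and Igkc (chr6:70726435-70726966) on the plus strand. Cd79a lies at chr7:24897381-24902197 on the plus strand, Cd79b at chr11:106311341-106314762, Ms4a1 at chr19:11249675-11266241, Cd93 at chr2:148436640-148443563 and Jchain at chr5:88519809-88527891 on the minus strand, and Vpreb3 at chr10:75943057-75949657 on the plus strand. RefSeq promoter sequence (GRCm38.p6) was at hand for 3 of the 9 members. All 3 are shown: Vpreb3, a gene of precursor and immature B cells, Cd79a, found in most Bc cells, and Jchain, a gene of plasma cells. The octamer ATGCAAAT, a motif of immunoglobulin promoters that the Oct factors bind, was searched on both strands (reverse complement ATTTGCAT) in the 250 bases before each RefSeq start, and capitals mark a match. The bases printed are chr10:75948050-75948299 (plus strand) for Vpreb3, whose RefSeq start lies inside the GENCODE gene, downstream of that gene's first base, chr5:88527898-88528147 (minus strand) for Jchain and, for Cd79a, only those of the window that lie before the GENCODE start, chr7:24897247-24897380 (plus strand).
Vpreb3: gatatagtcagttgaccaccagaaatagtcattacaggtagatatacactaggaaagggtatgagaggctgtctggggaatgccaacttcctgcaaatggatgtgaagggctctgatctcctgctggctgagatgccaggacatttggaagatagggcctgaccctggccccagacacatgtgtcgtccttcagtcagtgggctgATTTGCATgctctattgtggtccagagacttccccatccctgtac
Jchain: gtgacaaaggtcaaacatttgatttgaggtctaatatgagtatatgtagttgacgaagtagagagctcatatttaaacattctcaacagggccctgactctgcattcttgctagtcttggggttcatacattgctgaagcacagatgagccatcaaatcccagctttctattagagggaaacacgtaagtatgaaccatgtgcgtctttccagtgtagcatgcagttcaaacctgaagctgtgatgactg
Cd79a: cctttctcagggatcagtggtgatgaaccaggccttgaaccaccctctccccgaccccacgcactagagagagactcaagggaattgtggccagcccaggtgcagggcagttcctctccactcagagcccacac
Vpreb3 held 1 match, in reverse orientation with its first base at position -45 from the RefSeq start, and Jchain and Cd79a held 0. Of 32851 windows of this length 526 (1.6%) held the octamer.

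Jchain, which encodes the joining chain of polymeric antibody, split the Bc cells most sharply. Of the 1035 cells 947 held no Jchain UMI, 45 held 1, 1 held 2 and 1 held 3 to 9, none held 10 to 19, and 41 held between 22 and 3041. Cells with at least 10, a limit set after these counts were seen and with 1 cell near it, are called Jchain-high below. They made up 3.96% of Bc (2.86 to 5.34). In the dura 35 of 591 Bc cells were Jchain-high (5.92%, 4.16 to 8.14), in the pia 5 of 108 (4.63%, 1.52 to 10.5) and in the brain 1 of 336 (0.298%, 0.00753 to 1.65), the latter in the control. Brain 24 h replicate 2 and brain 72 h had 0 of 161 each, which allows a share of up to 1.86% in either by 3 counts of the total and 2.27% by the exact interval. By condition control dura held 13 Jchain-high cells (8.5% of its Bc cells, 4.6 to 14.1). Dura 24 h held 22 (5.02%, 3.17 to 7.51). Control pia held 3 (5.0%, 1.04 to 13.9) and pia 24 h held 2 (4.17%, 0.509 to 14.3).

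The Jchain-high cells carried most of the immunoglobulin RNA of Bc. Their median was 5249 Igkc UMIs per cell (3 to 14872) and 13861 UMIs in all, against 8 Igkc UMIs (0 to 69) and 928 UMIs in the other 994 cells. They held 97.7% and 96.7% of the Igkc UMIs of Bc in control and 24 h dura and 92.9% and 98.4% in control and 24 h pia. The leading heavy chain was Igha, the constant region of IgA, in 19 of them, Ighm in 17, Ighg1 in 2, Ighg2c in 2 and Ighg2b in 1. In control dura 9 were led by Igha and 3 by Ighm, and in dura 24 h 7 by Igha and 11 by Ighm. The lambda light chain led in 6 of the 41. The other members behaved differently in them: 38 had a Cd79a UMI, 3 had a Ms4a1 UMI, and Ighd had 0 UMIs.

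**Figure D1:**
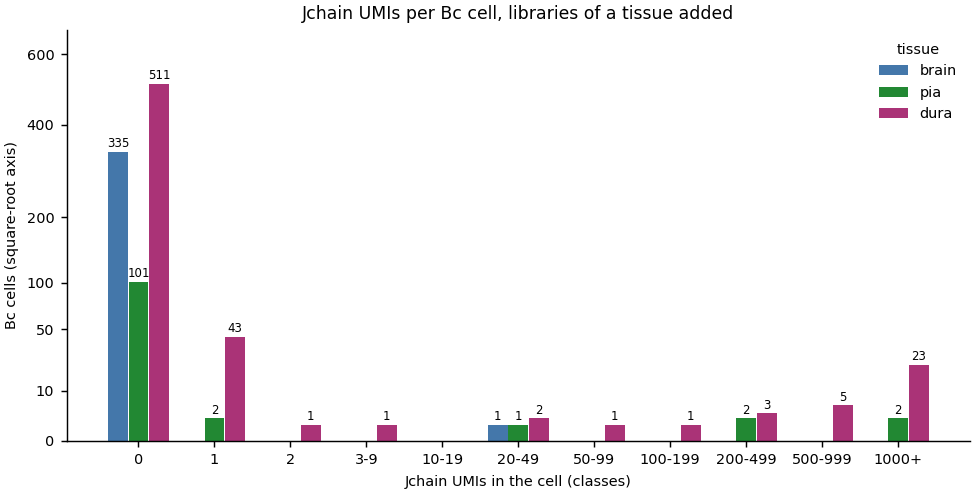
Number of Bc cells (vertical, square-root axis) by class of Jchain UMIs in the cell (horizontal), with the libraries of a tissue added and the tissue shown by colour. The class of 10 to 19 is empty, and of the 41 cells to its right 35 are from the dura.

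Ighm encodes the constant region of IgM, the first antibody class a B cell makes. In all Bc cells it measured 5745.6 CPM in brain 24 h replicate 2, 3713.9 in brain 72 h, 12242.5 in control pia, 1892.5 in pia 24 h, 15977.7 in control dura and 34002.9 in dura 24 h. The dura was highest, and the pia libraries lay on either side of the brain. With the Jchain-high cells left out the values were 5745.6, 3713.9, 2900.1, 3029.7, 5259.2 and 5079.4 CPM in the same order, so that the highest was 1.98 times the lowest instead of 18.0 times.

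Igkc, the constant region of the kappa light chain, measured 10916.3 and 8162.6 CPM in brain 24 h replicate 2 and brain 72 h, 61637.6 and 171850.2 CPM in control and 24 h pia, and 219680.3 and 175926.9 CPM in control and 24 h dura. Every pia and dura library was above both brain libraries. Igkc without the Jchain-high cells was 10916.3, 8162.6, 5098.6, 4300.9, 11037.4 and 11272.2 CPM, and the pia libraries became the lowest.

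Ighd encodes the constant region of IgD, which is made by splicing from the same transcript as IgM in mature B cells. It measured 345.7 and 489.9 CPM in the brain libraries, 252.6 and 172.0 in control and 24 h pia, and 154.4 and 177.6 in control and 24 h dura. The brain libraries were the highest, and those of pia and dura overlapped. Without the Jchain-high cells, which have no Ighd UMI, the range narrowed to between 275.4 CPM in pia 24 h and 489.9 CPM in brain 72 h, and the dura stood at 336.6 and 349.5 CPM.

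Cd79a and Cd79b encode the chains that pass the receptor's signal into the cell. Cd79a was the most even of the members, with 3096.6 and 2517.7 CPM in the brain libraries, 1688.2 and 1535.2 in control and 24 h pia, and 1338.2 and 1762.4 in control and 24 h dura. Cd79b measured 1717.5 and 1116.4 CPM in the brain, 558.3 and 450.0 in the pia, and 907.1 and 1149.7 in the dura. Both pia libraries were below all others for Cd79b, also without the Jchain-high cells (623.7 and 656.8 CPM in the pia against 1116.4 to 2145.5 elsewhere).

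Ms4a1 encodes CD20, a surface protein that is absent from early precursors and plasma cells. It measured 1324.5 and 757.6 CPM in the brain libraries, 465.2 and 198.5 in control and 24 h pia, and 389.2 and 283.6 in control and 24 h dura. The brain libraries did not overlap with those of pia and dura. Leaving out the Jchain-high cells put control dura at 841.5 CPM, above brain 72 h.

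Vpreb3 encodes a partner of the heavy chain in precursor and immature B cells and varied most of the members other than Jchain in cells that were not Jchain-high. It measured 1750.2 CPM in brain 24 h replicate 2 but 404.4 in brain 72 h, 172.8 and 264.7 in control and 24 h pia, and 440.7 and 481.9 in control and 24 h dura. The brain libraries thus held both the highest value and one within the range of the meninges. In those cells the highest, 1750.2 CPM, was 8.63 times the lowest, 202.7 CPM in control pia.

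Cd93, a surface receptor of transitional B cells and of myeloid and endothelial cells, was near the limit of detection in Bc, with 14 and 3 UMIs in the brain libraries, 1 each in the pia, and 9 and 16 in control and 24 h dura. That is between 13.2 and 50.9 CPM, and no order can be read from it.

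Jchain itself had 0 UMIs in the Bc cells of brain 24 h replicate 2 and brain 72 h, and measured 9716.9 and 51998.4 CPM in control and 24 h pia and 67201.7 and 30825.0 CPM in control and 24 h dura. The 0 counts of the brain libraries allow up to 10.9 and 17.1 CPM. Its pia values came from 3 and 2 Jchain-high cells. In the cells below the limit it was at most 196.3 CPM.

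In the libraries with only 7 Bc cells each, the control brain held 44 Ighm, 2 Ighd, 282 Igkc, 20 Cd79a, 9 Cd79b, 7 Ms4a1, 8 Vpreb3, 0 Cd93 and 37 Jchain UMIs, and brain 24 h replicate 1 held 25, 1, 92, 31, 10, 4, 2, 0 and 0. The 37 Jchain UMIs of the control brain were all in its 1 Jchain-high cell. No level was drawn from these libraries.

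**Figure D2:**
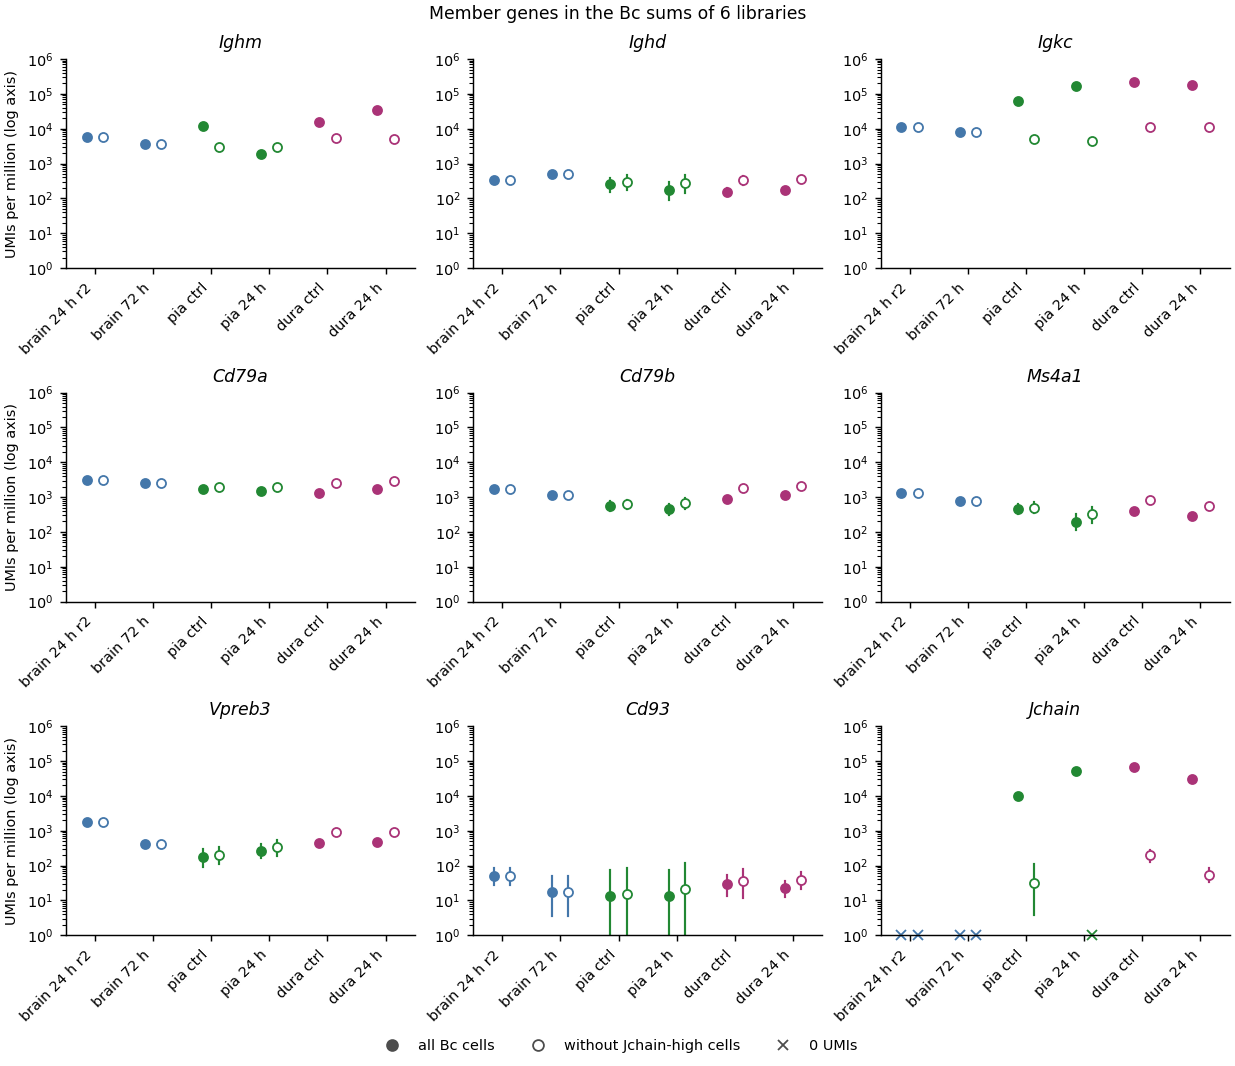
CPM of each member in Bc by library, on log axes, for all Bc cells (filled) and without the Jchain-high cells (open), with 95% exact Poisson intervals where wider than the point and a cross for 0 UMIs. Igkc in control dura stands at 219680.3 CPM filled and 11037.4 CPM open, while in the brain libraries filled and open points coincide.

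The counts of the 6 libraries were compared between tissues and between MCAO and control with edgeR's quasi-likelihood test. Calls needed a change of at least 2-fold together with a p under 0.05 after Benjamini-Hochberg adjustment. Of the 9 members 8 passed the filter on low counts, and Cd93 did not. The fit had 2 residual degrees of freedom, and bulk sums of this kind cannot tell fewer cells of a type from less RNA per cell. No group had a second library in the fit, and brain 24 h and 72 h were both entered as MCAO.

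Between dura and pia Cd79b was higher in the dura, by 1.41 on the log2 scale (SE 0.23, adjusted p = 0.00239). It was 1 of 8 members called, where 1.39% of all 3739 genes were called, 24 higher and 28 lower (17 and 96 when scaled by library size alone). Igkc differed by 1.32 (SE 0.63, adjusted p = 0.506), Ighm by 2.63 (SE 1.25, adjusted p = 0.582), Vpreb3 by 1.45 (SE 1.19, adjusted p = 0.739) and Jchain by 1.4 (SE 2.26, adjusted p = 0.904), and none of these passed the test. Leaving out 1 library made calls of Ighm in 3 fits (2.67 to 4.35), of Igkc in 3 (1.34 to 2.59), of Jchain in 3 (1.43 to 3.55) and of Vpreb3 in 2 (1.47 in both), and thinning made one of Ighm (1.23, adjusted p = 0.0441), so that single libraries decide these calls. Jchain was also negative in 2 such fits. The Cd79b call was lost without pia 24 h (1.46, adjusted p = 0.0784) and with scaling by library size alone (1.02, adjusted p = 0.0778). Without the Jchain-high cells 1.97% of genes were called, and among 7 members tested Cd79b (1.53, SE 0.24, adjusted p = 0.000832) and Igkc (1.14, SE 0.18, adjusted p = 0.000901) were higher in the dura.

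Between dura and brain 42.2% of genes were called, 636 higher and 940 lower in the dura (267 and 1378 when scaled by library size alone), and 2 of 8 members. Igkc was higher in the dura by 5.35 on the log2 scale (SE 0.75, adjusted p = 0.00459). The Igkc call was lost without brain 24 h replicate 2 (5.53, adjusted p = 0.279) and without the filter (5.57, adjusted p = 0.173), and thinning every cell to 500 UMIs lowered it to 1.58. Ms4a1, the CD20 gene, was lower, at -1.47 (SE 0.27, adjusted p = 0.000391), a call lost without dura 24 h (-1.56, adjusted p = 0.0726). Ighd had an adjusted p of 0.033 in edgeR's test but a change of less than 2-fold (-0.81, SE 0.30). Cd79a (-0.22, adjusted p = 0.345) and Cd79b (0.12, adjusted p = 0.664) were not called. Jchain, at 0 in both brain libraries, had an adjusted p of 0.182 in edgeR's test and was called in 8 of 12 alternatives. Calls of Ighm, at 2.71 (adjusted p = 0.188), were made in 5 of 13 alternatives, and of Ighd and Vpreb3 in 2 each, the latter at -1.14 and -1.17. Vpreb3 turned positive without brain 24 h replicate 2 (0.75) and without dura 24 h (0.42), with no call. Without the Jchain-high cells, where 37.5% of genes were called, Igkc stood at -0.11 (SE 0.19, adjusted p = 0.677), and Ms4a1 remained lower in the dura (-1.20, SE 0.27, adjusted p = 0.00184).

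Both brain libraries of this comparison carry a shorter gene list than the other 6 libraries (31053 against 32285 genes), so that gene list and tissue cannot be told apart. Of the genes in both lists, 16 were at least 10-fold lower and 17 at least 10-fold higher in both of these libraries, and none was a member. Kit versions also differed, with brain 72 h and dura 24 h on the newer one, and cannot be told apart from group.

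Between MCAO and control, a contrast that rests on pia and dura because the control brain had too few Bc cells, 0.16% of genes were called by edgeR, or 6 genes, against 228 with an unadjusted p under 0.05. None of the 8 members was called with all 6 libraries. Without control dura Ighm (-2.29, adjusted p = 4.66e-05), Igkc (1.88, adjusted p = 0.0068) and Jchain (2.82, adjusted p = 3.31e-07) were called by edgeR. Without dura 24 h Ighm (-2.37) and Jchain (2.74) were called, while without either pia library all 3 had the opposite sign and no call. The smallest p with all libraries was that of Ms4a1 at -0.69 (SE 0.27, adjusted p = 0.806 in edgeR's test). Igkc stood at 0.69 (SE 0.63) and Vpreb3 at 0.25 (SE 1.09), and the SE of Vpreb3 alone exceeds a 2-fold change. Without the Jchain-high cells, where 0.0895% of genes were called, no member was called either.

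The other genes of B cell biology were followed in 11 lists. Of the 12 genes of mature recirculating B cells 10 were tested, and 6 were lower in the dura than in the brain, where 940 of all 3739 genes were lower. Among them were Fcer2a, Cd22, Fcmr, Klf2 and S1pr1, with a list median of -1.47 on the log2 scale beside -0.07 over all genes. Klf2, a factor of quiescent circulating lymphocytes, had -2.64 (SE 0.26, adjusted p = 1.64e-06), and S1pr1, the receptor that lymphocytes follow out of tissue, -2.45 (SE 0.38, adjusted p = 7.59e-05). The same count of 6, out of 11 tested, was lower without the Jchain-high cells, where 715 of all 3352 genes were lower. Klf2 was also lower in the dura than in the pia (-1.34, SE 0.24, adjusted p = 0.00685), as the 1 gene called of this list there.

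Of the 9 antibody secretion genes 7 were tested, and 5 were higher and 1 lower in the dura than in the brain, beside 42.2% of all genes called, with Xbp1, a factor of secretory cells, at 4.81 (SE 0.47, adjusted p = 8.94e-05). Of the 4 tested without the Jchain-high cells 0 were higher and 1 was lower, beside 37.5% of all genes called. Of the 3 lambda light chain genes Iglc1 and Iglc2 were higher in dura than brain and Iglc1 higher in dura than pia. All 3 were higher in dura than pia without the Jchain-high cells, where 26 of all 3352 genes were higher. The calls against the brain were lost without those cells, with Iglc1 at -0.01 (adjusted p = 0.986) and Iglc2 at -0.31 (adjusted p = 0.323). Among the 9 B lineage factors Spib was higher in the dura than in the pia (1.71, SE 0.37, adjusted p = 0.0201), and against the brain 1 was higher and 4 lower, with Pax5 at -3.53 (SE 0.35, adjusted p = 8.08e-07). These 5 of 9 lie near the 42.2% of all genes called, and so do the 9 of 18 receptor signalling genes. Of the latter none was called between dura and pia, and 4 were higher and 5 lower in dura than brain, their median of -0.10 lying beside -0.07 for all genes.

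Of 11 B precursor genes 6 were tested and none was called in any of the 3 comparisons. Of all genes 1.39% were called between dura and pia, 42.2% between dura and brain and 0.16% between MCAO and control. Between dura and pia the SEs of Vpreb1 (1.65), Igll1 (1.48), Il7r (2.4) and Sox4 (1.37) each exceed a 2-fold change. The remaining lists are short, with 2 to 7 genes tested in each. Between dura and pia, Cd9 of the B-1 and marginal zone list was lower (-2.24, SE 0.36, adjusted p = 0.00232). The other gene tested of that list, Bhlhe41, had the opposite sign (0.78, SE 0.61, adjusted p = 0.659). The paper names Cd9 among the genes of its stroke-associated myeloid cells, so the call is not read as one of B cell subsets. None was called there of the antigen presentation, cycling, immature and switched heavy chain lists. Between dura and brain 1 of 7 antigen presentation genes tested, 1 of 3 cycling genes and 1 of 2 immature genes were lower. None of the 2 B-1 and marginal zone or 2 switched heavy chain genes tested was called. These counts are too small to set against the 42.2% of all genes called. Without the Jchain-high cells, where 37.5% of genes were called, edgeR called Igha higher (3.33, SE 1.08, adjusted p = 0.0381). It also called Cd9 lower in the dura there (-1.12, SE 0.39, adjusted p = 0.0277). Igha was at most 280.5 CPM in those cells of any library. The dural clusters other than Bc and the cycling one also held Igha, with 464 UMIs in the control and 417 at 24 h. The part of Igha RNA from other cells in this call was not tested. In the comparison of MCAO with control, where 0.16% of all genes were called, no gene of any list was called by edgeR. The 5 genes named by fold as lower in dura than pia were Cx3cr1, Csf1r, Ccl3, Ccl4 and Ctsl, which myeloid cells express. The myeloid marker sums given above, which include Csf1r, were higher in Bc of both pia libraries. The 5 genes named as higher in dura than pia were Iglc1, S100a8, Mrpl34, Prdx4 and Spns3. Of these S100a8, 1 of the 2 neutrophil markers, had 7.48 (SE 1.63, adjusted p = 0.0235 in edgeR's test).

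Maturity was then read cell by cell, as the share of cells with a UMI after every cell had been thinned to 500 UMIs, without the Jchain-high cells. No cell was too shallow for this depth. The brain shares come only from the libraries with the shorter gene list, so gene list and tissue cannot be told apart here. Vpreb3 was found in 48.4% of cells in brain 24 h replicate 2 (40.5 to 56.4) and 19.3% in brain 72 h (13.5 to 26.2), in 3.51% and 6.52% in control and 24 h pia (0.428 to 12.1 and 1.37 to 17.9), and in 30.0% and 28.6% in control and 24 h dura (22.6 to 38.3 and 24.3 to 33.2). The dura intervals lay above that of control pia and above that of pia 24 h, and those of control and 24 h dura overlapped. Unthinned, the shares were 67.7%, 26.1%, 7.02%, 8.7%, 40.0% and 37.3%. In all clusters other than Bc and the cycling one, at median depths of 1045.0 to 2526.0 UMIs, it was 0.334% of cells or less.

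Ighd was found in 21.1% of cells (15.1 to 28.2) in brain 24 h replicate 2, 23.6% (17.3 to 30.9) in brain 72 h, 15.8% and 13.0% in control and 24 h pia, and 15.7% and 15.1% in control and 24 h dura. All these intervals overlapped. Ms4a1 ran from 17.4% in pia 24 h to 37.9% in brain 24 h replicate 2, and Cd79b from 19.6% in pia 24 h to 59.6% in dura 24 h. Cd93 was in 0 to 3.57% of cells, with 0 of 46 in pia 24 h, which allows a share of up to 6.52% by 3 counts of the total and 7.71% by the exact interval.

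Vpreb3 and Ighd were rarely in the same dural cell. In control dura 56 of 140 cells had Vpreb3, 32 had Ighd and 2 had both, where the product of the shares gives 12.8. In dura 24 h 16 of 416 cells had both, with a product of 36.1. In brain 72 h 17 cells had both and the product was 15.9, and in brain 24 h replicate 2 it was 29 and 37.9. At 500 UMIs the numbers were 2 and 6.6 in control dura, 6 and 18.0 in dura 24 h, 8 and 7.32 in brain 72 h, and 10 and 16.5 in brain 24 h replicate 2. The dura libraries and brain 24 h replicate 2 were thus below the product at both depths, and brain 72 h was at it.

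Over all Bc cells the 382 with Vpreb3 and the 653 without it, with median depths of 1065 and 891 UMIs, also differed in genes the split did not use. Ighd was in 17.0% and 31.7%, Il7r, the interleukin 7 receptor chain of precursors, in 14.1% and 2.14%, and Sox4, a factor of early B cells, in 29.1% and 4.44%. Igll1 and Vpreb1, which form the surrogate light chain, were in 5.76% and 4.45% of cells with Vpreb3 and in 0.153% and 0.613% of cells without it. These shares pool all libraries, which differ in tissue and depth. In brain 72 h 17 cells held both Vpreb3 and Ighd beside a product of 15.9, so the Ighd gap was not seen in every library. Cells of 1 library are not replicates, and these shares are given without a test.

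Any of 6 genes of the precursor stage (Dntt, Rag1, Rag2, Vpreb1, Vpreb2, Igll1) was found, at 500 UMIs per cell and over all Bc cells, in 3.92% (1.45 to 8.34) and 5.25% (3.36 to 7.78) of cells in control and 24 h dura. The share was 3.33% (2 of 60 cells) and 0% (0 to 7.4) in control and 24 h pia, 3.73% (1.38 to 7.93) in brain 24 h replicate 2 and 0.621% (0.0157 to 3.41) in brain 72 h. The intervals of all 6 libraries overlapped, and no order is read from them. Unthinned, the shares were 9.15% and 7.31% in the dura and 3.33% and 0% in the pia. They were 8.07% in brain 24 h replicate 2 and 0.621% in brain 72 h. The clusters other than Bc and the cycling one together reached 0.886% or less in each library.

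**Figure D3:**
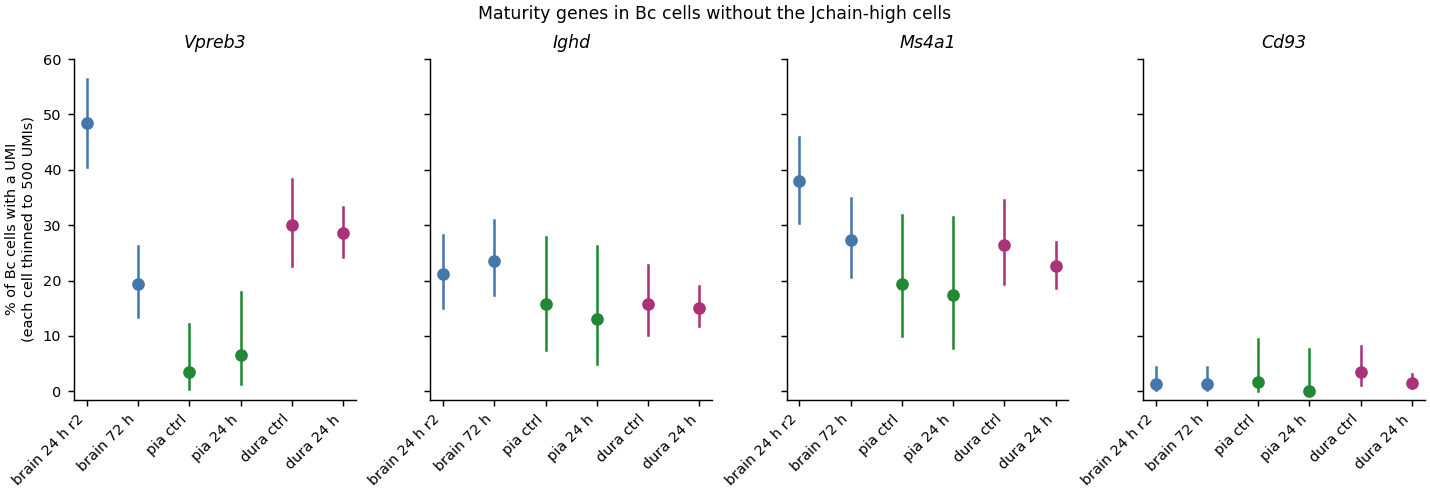
Percent of Bc cells without the Jchain-high cells that hold a UMI of Vpreb3, Ighd, Ms4a1 or Cd93 at 500 UMIs per cell, by library, with 95% exact binomial intervals. Vpreb3 is lowest in the pia (3.51% and 6.52%) and highest in brain 24 h replicate 2 (48.4%).

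B lineage cells were also present in the cluster of cycling cells. There, 37 of 257 cells (14.4%, 10.3 to 19.3) held both Cd79a and Vpreb3, against 0.0743% or less of the cells of all other clusters but Bc in each library. By tissue they were 28 of 105 in the dura (26.7%, 18.5 to 36.2), 2 of 24 in the pia (8.33%, 1.03 to 27.0) and 7 of 128 in the brain (5.47%, 2.23 to 10.9). In control dura 20 of 62 cells qualified and in dura 24 h 8 of 43. The brain libraries were unlike, with 4 of 16 in brain 24 h replicate 2 (25.0%, 7.27 to 52.4) and 3 of 106 in brain 72 h (2.83%, 0.587 to 8.05). The 37 cells, with a median of 3090 UMIs, had Ighm in 100%, Igkc in 97.3%, Cd79b in 94.6%, Ms4a1 in 10.8% and Ighd in 5.41%. Igll1 was in 45.9%, Vpreb1 in 29.7% and Il7r in 64.9% of them, and in the other 220 cycling cells, at a median of 4714.5 UMIs, Igll1 was in 1.82% and Il7r in 7.27%. The myeloid gene Lyz2 was in 37.8% of the 37 and 80.5% of the others.

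**Figure D4:**
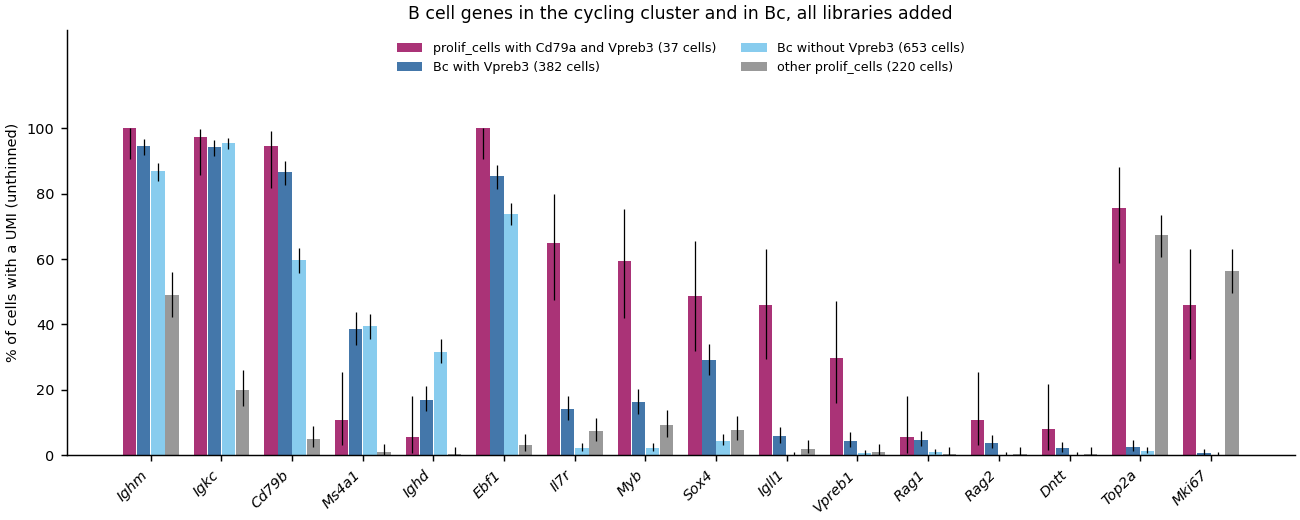
Percent of cells with a UMI of each gene, unthinned, in the 37 cells of the cycling cluster with Cd79a and Vpreb3, in its other 220 cells, and in the 382 Bc cells with and the 653 without Vpreb3, with 95% exact binomial intervals and all libraries added. Igll1 is in 45.9% of the 37 cycling cells and 5.76% of Bc cells with Vpreb3, and Ighd in 5.41% and 17.0%.

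Light chain use was read in Bc cells below the Jchain limit with at least 3 light chain UMIs. Of 911 such cells 555 were led at least 4-fold by kappa, 45 by lambda (4.94%, 3.63 to 6.55) and 311 (34.1%) by neither. Lambda led in 10.8% of cells in control dura, 5.32% in dura 24 h, 2.56% in brain 24 h replicate 2, 3.31% in brain 72 h, and 2.17% and 0% in control and 24 h pia. Neither chain led in 63 of 156 cells in brain 24 h replicate 2 and 62 of 151 in brain 72 h. The undecided cells were 18 of 46 and 6 of 30 in control and 24 h pia. In control and 24 h dura they were 40 of 139 and 116 of 376. The part of free light chain RNA, which other clusters also held, in the undecided group was not tested.

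Outside B cells the members marked Bc to different degrees. By the mean over libraries Bc ranked first of 21 clusters for 8 of the 9 members and 10th for Cd93. The cycling cluster came second for Ighm, Igkc, Cd79a, Cd79b, Ms4a1 and Vpreb3, with Vpreb3 at 260.5 ± 215.1 CPM (SD, n = 3) beside 585.8 ± 582.1 CPM (SD, n = 6) in Bc. Of the 3 libraries with at least 30 cycling cells, control dura had 462.5 CPM of Vpreb3 (383.2 to 553.5) in that cluster. All its Bc cells together had 440.7 CPM, a difference within counting error. Immunoglobulin genes and Jchain made up 44.4% of the UMIs of those Bc cells. With them taken out of the total, Vpreb3 stood at 792.1 CPM in Bc, above that interval. No such value was taken for the cycling cluster. Cd93 was highest in clusters named as macrophages and granulocytes, with 174.9 CPM in Macro_1 in its 1 library and 97.9 ± 85.6 CPM (SD, n = 7) in Granulo_1, against 24.2 ± 14.4 CPM (SD, n = 6) in Bc.

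In cells of the other clusters Igkc followed the tissue. Leaving out Bc and the cycling cluster, it measured 1.29 CPM in control brain, 0.457, 10.9 and 8.51 CPM in brain 24 h replicates 1 and 2 and brain 72 h, 12.1 and 27.3 CPM in control and 24 h pia, and 255.5 and 380.7 CPM in control and 24 h dura. Of these cells 38.5% and 46.8% had an Igkc UMI in the dura libraries, 2.52% and 4.89% in the pia and 1.5% or less in the brain. Jchain was at 0 UMIs in the 4 brain libraries, at 1.58 and 6.72 CPM in the pia and at 87.5 and 45.0 CPM in the dura. Both dura libraries, which had the most Jchain-high cells, also had the highest Igkc and Jchain levels in other cells, and this cannot be told apart from tissue. Of the Bc cells 8.5% were Jchain-high in control dura (13 cells) and 5.02% in dura 24 h (22 cells). Jchain in other cells was higher in control dura than in dura 24 h. The source of this RNA was not tested.

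The ratios of the plasma cell transcripts in a dural library were compared between Bc and the other cells, without a test. In control dura there were 30.6 Jchain UMIs per 100 Igkc UMIs in Bc, 39.0 in myeloid clusters and 32.8 in T, NK and ILC2 clusters, and 32.8, 37.5 and 35.8 Igha UMIs. In dura 24 h the Jchain ratios were 17.5, 11.1 and 12.2 and the Igha ratios 12.4, 15.4 and 17.3. Both ratios were lower in dura 24 h than in control dura in each of the 3 sets of cells. In pia 24 h the Jchain ratios were 30.3, 29.7 and 25.8. The Igha ratios there were less alike, at 47.3, 104.3 and 64.5. Control pia had 1 Igha UMI in each set, too few for a ratio.

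Ighm and Cd79b followed another pattern. Ighm in the other cells was 336.1 CPM in control brain, 206.3, 111.5 and 94.9 CPM in the brain after MCAO, 194.5 and 92.4 CPM in control and 24 h pia, and 267.8 and 262.4 CPM in control and 24 h dura. The control brain, with 7 Bc cells, was the highest. Its myeloid clusters held 2283 Ighm and 353 Cd79b UMIs but 9 Igkc and 1 Cd79a UMI, while its Bc cells held 44 Ighm and 282 Igkc UMIs. The ratio of Ighm to Igkc in those clusters was therefore not that of the library's Bc cells. Cd79b in the other cells ran from 10.2 CPM in pia 24 h to 51.0 CPM in control brain. Of 106 sums of cluster and library outside Bc, Ms4a1 was at 0 UMIs in 84, Vpreb3 in 78, Jchain in 63, Cd79a in 60, Ighd in 57, Cd93 in 24, Igkc in 23, Cd79b in 13 and Ighm in 0.

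**Figure D5:**
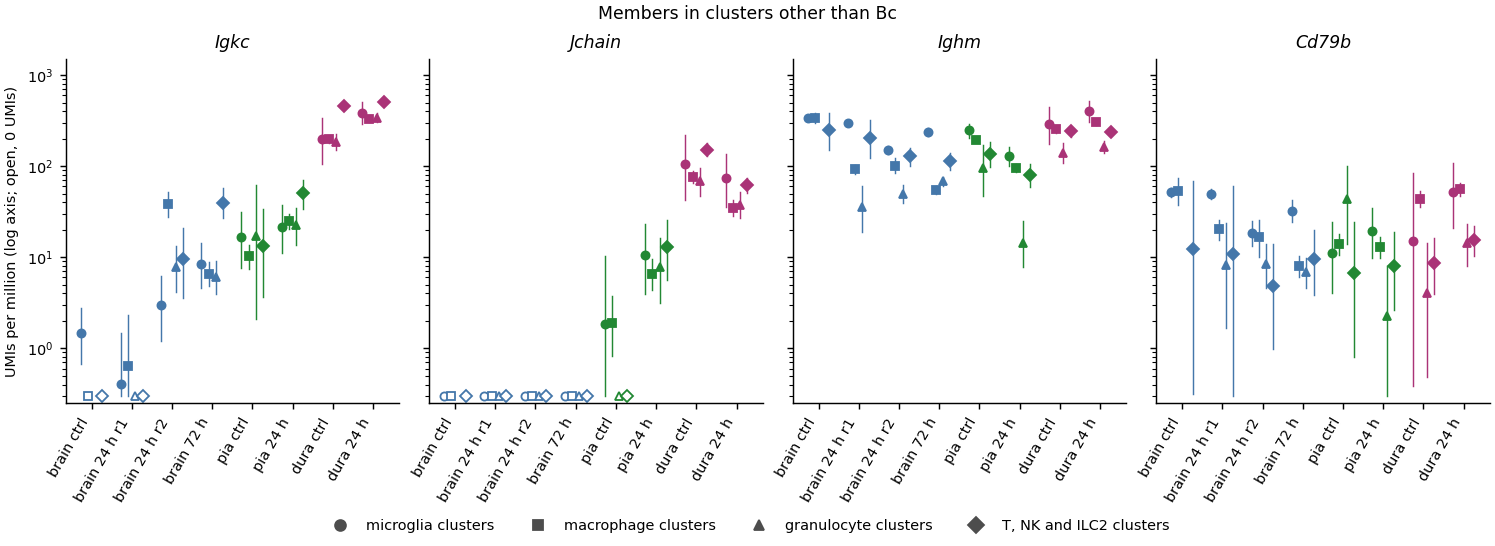
CPM of Igkc, Jchain, Ighm and Cd79b in microglia, macrophage, granulocyte and T, NK and ILC2 clusters by library, on log axes, with 95% exact Poisson intervals and open symbols for 0 UMIs. Igkc is highest in the 2 dura libraries in every class shown, and Jchain is at 0 in all brain libraries, while Ighm is present in every class of every library shown.

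Over 112 sums of cluster and library, which share libraries and depth, the genes with levels most like each member were found by the correlation of log2(CPM + 10). Cd79a was most like Gm30211, Ebf1 and Pou2af1 (r = 0.96 each), and Ms4a1 most like Fcmr (r = 0.98). Ighd was most like Fcmr and Ms4a1 (r = 0.95 each), and Vpreb3 most like Ebf1 and Cd79a (r = 0.95 each). Jchain was most like Igha (r = 0.91) and Igkc (r = 0.86), Igkc most like Iglc1 (r = 0.88), Ighm most like Mzb1 (r = 0.81) and Cd79b most like Cd79a (r = 0.81). Cd93 stood apart, with Myof first (r = 0.72) and r between -0.16 and 0.09 with the other members.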

How the data were processed

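Leukocytes of 8 libraries were profiled by droplet 3' single-cell RNA-seq. The authors deposited raw UMI counts per gene and cell, made with Cell Ranger 6.0 on mm10 according to the submitters' processing notes, and a table that assigns cells to clusters; its 2 UMAP columns of per-sample values were not used. Cell types are the submitters', made from the same genes, so that levels of Bc against other clusters are descriptions. Doublets were not called again here. Kit versions were taken from the study's supplement.

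UMIs were summed per library and cluster and expressed as CPM. Sums of at least 30 cells were kept. Counts of the 6 Bc sums were tested with edgeR 4.0.16 in R 4.3.3 (TMM, expression filter, quasi-likelihood, tissue and condition as terms), with DESeq2 1.42.0 as an alternative. Scripts were tested on simulated data. Each of the 6 libraries in the fit was the only one of its group, and brain 24 h and 72 h both entered as MCAO. The p-values thus measure spread among these libraries, which may be technical and includes differences by time and between tissue responses. For each comparison up to 5 called genes per direction were named by fold, beside all members. Binomial and Poisson intervals are exact at 95%. Other alternatives were library-size scaling, no filter, a minimum of 10 cells, thinning, other terms and leaving out each library. Python 3.11.15 with pandas 2.3.3, numpy 2.4.6, scipy 1.17.1 and matplotlib 3.10.9 was used. Some list genes are not reported here. The members, lists and tests were chosen with earlier results of these data known.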

Additional observations from a re-analysis of the deposited data

Results flagged for a closer look

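4 quantities moved in opposite directions from control to 24 h after MCAO in pia and dura. The differences were not tested, since each value is 1 library. In all Bc cells the log2 ratio of MCAO to control for Ighm was -2.69 in the pia and 1.09 in the dura, a difference of 3.78. For Igkc it was 1.48 and -0.32, a difference of -1.80, and for Jchain 2.42 and -1.12, a difference of -3.54. The pia values of these genes rest on 3 Jchain-high cells in the control, led by Ighm, and 2 at 24 h, led by Igha. The share of Bc among annotated cells had log2 ratios of -0.81 in the pia and 0.83 in the dura, a difference of 1.64.

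Among 4397 barcodes that the annotation leaves without a cluster, 4 held at least 10 Jchain UMIs, 1 in the control brain, 2 in control dura and 1 in dura 24 h. They entered no comparison.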

How the results depend on the processing

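No paired analysis was possible because replicate numbers exist only within brain 24 h, so that compared groups share fewer than 2 numbers. A minimum of 10 Bc cells kept the same 6 libraries. Of genes called between dura and pia (52), DESeq2 gave 22, library size alone 113, no filter 101 and thinning 21, and leaving out 1 library gave 35 to 156 (121 without brain 24 h replicate 2 and 156 without brain 72 h). Between dura and brain (1576) DESeq2 gave 449 and thinning 643, and leaving out 1 library gave 302 to 1964, the lowest without dura 24 h. Between MCAO and control (6) DESeq2, condition alone and thinning gave 0, with 33, 134 and 92 genes at an unadjusted p under 0.05, no filter gave 16 and leaving out the Jchain-high cells 3, and leaving out 1 library gave 6 to 21 (15 without brain 24 h replicate 2, 21 without brain 72 h, 15 without control dura and 20 without dura 24 h). Library size alone moved the median log2 change of all genes from 0.06 to -0.31 between dura and pia and from -0.07 to -0.62 between dura and brain. The Bc share among cells with at least 1000 UMIs was 7.72% in brain 24 h replicate 2, 1.37% in brain 72 h, 1.41% and 0.559% in control and 24 h pia, and 2.94% and 4.44% in control and 24 h dura.

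Some log2 changes turned sign. Between dura and pia Ighd was -0.01 with DESeq2 and -0.34 with library size alone, Cd79a -0.07 with library size alone, and Jchain between -0.62 (without control dura) and 3.55 over the libraries left out, with -0.57 without control pia. Between dura and brain Cd79b was -0.47 with library size alone and between 0.00 (without brain 72 h) and 0.43 over the libraries left out, and Cd79a 0.01 without the filter. Vpreb3 ran from -1.17 to 0.75 (without brain 24 h replicate 2), with 0.42 without dura 24 h, and Sparc from -7.37 to 0.44 (without dura 24 h). Without the Jchain-high cells Ighm was -0.15 and Igkc -0.11 there, and Igkc -0.11 between MCAO and control. In the latter, condition alone gave 0.45 for Ighd, -0.73 for Igkc, 0.38 for Ms4a1, -1.06 for Jchain and 0.22 for Actb, thinning gave -0.22 for Igkc, -0.32 for Jchain and -0.04 for Slpi, and no filter gave 0.00 for Ighd. Without control pia and without pia 24 h, Ighm was 0.96 and 0.99, Ighd 0.07 and 0.11, Igkc -0.45 and -0.42, and Jchain -1.26 and -1.22, and Vpreb3 was 0.00 without control pia. Over all libraries left out these genes ran from -2.37 to 0.99, from -0.23 to 0.11, from -0.45 to 1.88, from -1.26 to 2.82 and, for Vpreb3, from 0.00 to 1.02. The causes were not tested. The fits without the Jchain-high cells and without immunoglobulin genes were chosen after seeing the data. Depth limits Cd93 and the pia, with 48 and 60 Bc cells.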
